A study of Mus musculus with 12 samples.

Results

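The genes described here are 7 regulators and surface markers of B-1 cells: Bhlhe41, Bhlhe40, Ptpn22, Cd5, Spn, Zbtb32 and Plscr1. They were chosen by name, with earlier results of these data known. Counts of them set beside all genes therefore describe these genes and are no independent test. Every noncontrol probe whose RefSeq accession belongs to 1 of these symbols was taken. This gave 10 of 55681 probes and 7 of 37163 gene names on the array. All 10 probes were well above background on all 12 arrays, and none of their spots was saturated or left out as an outlier. The arrays measured total RNA of splenic B cells that the labels call follicular zone B cells, from male C57BL/6J mice. WT and Bach2-/- cells were each profiled at 0 h and at 24 h after 10 µg/mL of anti-mouse IgM Fab', which ligates the B cell receptor (BCR), with 3 arrays in each of the 4 groups. Bach2 encodes a transcriptional repressor, and by their label the Bach2-/- groups lack it at both times. The sources used here give neither the age of the mice, nor whether animals were pooled, nor which part of Bach2 was deleted. Nothing in the labels says that the 3 arrays of a group had separate mice or cultures as their source. The p-values therefore reflect array-to-array spread alone, and that spread may be technical.

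B-1 cells are self-renewing B cells that make natural IgM and are known from the peritoneal and pleural cavities, with a small pool in the spleen. Follicular B cells, the bulk of splenic B cells, normally lack CD5 and CD43, the surface proteins by which B-1a cells are told apart. BHLHE41 and its close relative BHLHE40 are basic helix-loop-helix repressors that bind the E-box CACGTG, act in the circadian clock, and are needed for B-1a cells. PTPN22 is a phosphatase that dampens Src and Syk family kinases after antigen receptor ligation, and CD5 is a surface inhibitor of the same pathway. CD43, the product of Spn, is a large sialomucin that ERM proteins link to the cytoskeleton. ZBTB32 is a zinc finger repressor that works with Blimp-1 in plasma cells and restrains secondary antibody responses, and PLSCR1 is an interferon-induced phospholipid scramblase.

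Values below are log2 of the processed signal over the 75th percentile of its array, so 0 is the level of that percentile. That percentile ran from 97.3 to 358 in signal units over the 12 arrays, and 50.9% to 66.7% of noncontrol spots were well above background. Bach2 itself had log2 signals of 3.06 to 3.79 on the 6 WT arrays. On the Bach2-/- arrays it read 0.80 to 1.11 at 0 h, above the 75th percentile, and -1.01 to -0.072 at 24 h. The position of its probe relative to the deletion is unknown here, so this check of the labels has that limit. All 8 B cell markers and all 8 follicular markers, Fcer2a (CD23) and Cr2 (CD21) included, were well above background on all 12 arrays. No B cell marker was called between genotypes with limma. At 24 h their median difference was -0.42, 3 were lower with an unadjusted p under 0.05, and the replicate block called 3 lower (Cd79b, Ms4a1 and Pax5). Their summed signal relative to the 75th percentile was then 624 to 1112 in WT and 371 to 700 in Bach2-/- cells. Between genotypes none of the follicular markers was called at 0 h with limma (1 lower with an unadjusted p under 0.05; Cr2, lower, with the replicate block). At 24 h 3 were lower in Bach2-/- cells, with or without the doubted arrays named below (Cr2, Ccr7 and Klf2, and 5 with the replicate block), and the median difference of the 8 was -1.03. Of all genes limma called 0.945% lower at 24 h, and the replicate block called 19.6% in either direction. The summed signal of the 8 follicular markers relative to the 75th percentile was 588 to 729 in WT and 536 to 752 in Bach2-/- cells at 0 h, and 168 to 261 and 62.7 to 103 at 24 h. Slide 2 held array 1 of every group and slide 1 held arrays 2 and 3. On Bach2-/- 0 h array 1 none of 4 Y-linked genes was well above background although the mice are labelled male, and Bach2-/- 24 h array 2 was the dimmest; these are the doubted arrays. Counts of members without both of these arrays are given beside the counts with them.

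At 0 h, 3 of the 7 genes were higher in Bach2-/- cells (Bhlhe41, Ptpn22 and Spn), where 0.629% of the 22744 genes tested were called higher, 0.119% lower and 0.747% in either direction. At 24 h, 4 were higher (the same 3 genes and Cd5), against 2.26% of all genes called higher, 0.945% lower and 3.21% in either direction. No member was called lower at 0 h or 24 h in this fit, in which 1 had an unadjusted p under 0.05 for a lower level at each time, Bhlhe40 in both cases. Without both arrays named above, these counts were 3 and 4, against 0.532% and 2.72% of all genes called. There was no overlap between arrays of WT and Bach2-/- cells for 6 of the 7 genes at 0 h (not Cd5), against 12.7% of all genes, and for 6 at 24 h (not Plscr1), against 16.3%. The median genotype difference of the 7 genes was 0.87 at 0 h and 1.59 at 24 h, beside 0.028 and -0.055 over all genes tested. As the 7 genes were chosen with earlier results of these data known, these counts and medians are a description only. A call here is an adjusted p under 0.05 from limma with Benjamini-Hochberg adjustment over all 22744 genes. With the replicate number as a block, 5 members were called at 0 h and 6 at 24 h, Bhlhe40 among them as lower at both times. That fit called 3.73% of all genes at 0 h and 19.6% at 24 h, more than without the block.

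**Figure D1:**
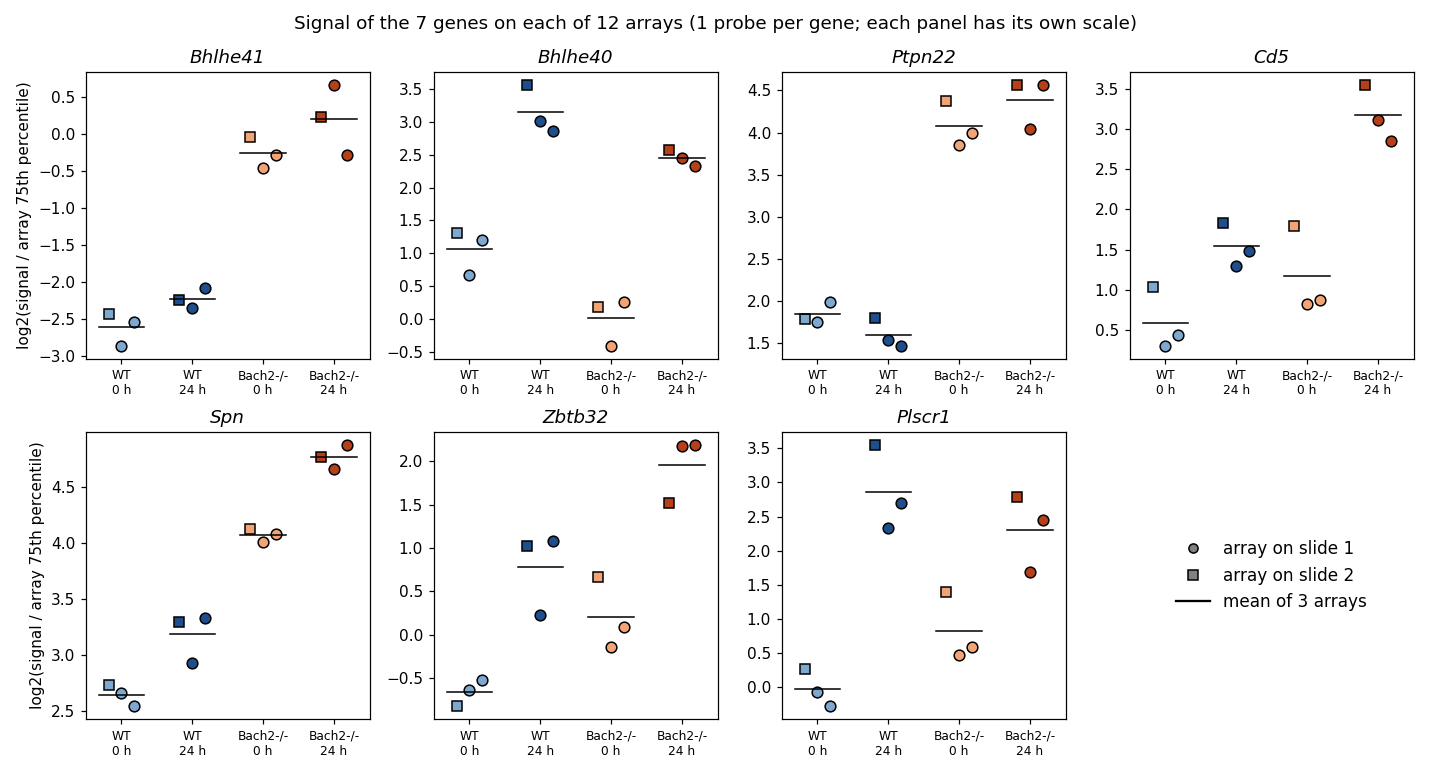
Each panel plots 1 gene by its log2 signal relative to the array's 75th percentile (y axis, its own scale in each panel) in the 4 groups (x axis). Circles are arrays of slide 1, squares are arrays of slide 2 and horizontal lines are means of 3 arrays. All 6 Bach2-/- arrays of Bhlhe41, Ptpn22 and Spn lie above all 6 WT arrays, and for Bhlhe40 and Plscr1 all 6 arrays at 24 h lie above all 6 at 0 h.

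Over 24 h of stimulation, 3 members rose in WT cells (Plscr1, Bhlhe40 and Zbtb32), where 12.5% of all genes were called higher, 9.38% lower and 21.9% in either direction. In Bach2-/- cells 5 rose (Bhlhe40, Cd5, Zbtb32, Plscr1 and Spn), against 5.92% of all genes called higher, 8.11% lower and 14% in either direction. Without both arrays these counts were 4 and 4, beside 26.5% and 15.3% of all genes. With the replicate block, 5 members were called in WT cells, as Cd5 (adjusted p = 0.000687) and Spn (adjusted p = 0.00855) joined, and 5 in Bach2-/- cells, against 47.2% and 33.9% of all genes called with that block. The arrays of 0 h and 24 h did not overlap for 6 members in WT cells (not Ptpn22) and for 5 in Bach2-/- cells (not Bhlhe41 or Ptpn22), beside 39.1% and 25.9% of all genes. No member passed the test of whether the response differed between genotypes, in which limma called 0.343% of all genes (0.259% higher and 0.0835% lower), and 2 members had an unadjusted p under 0.05. Those were Cd5 (larger rise in Bach2-/- cells) and Plscr1 (smaller rise in Bach2-/- cells), and both were called with the replicate block, which called 5.09% of all genes. Without both arrays 0 members and 0.387% of all genes were called.

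Bhlhe41, which encodes a repressor needed for B-1a cells, was high in Bach2-/- cells at both times and did not change with stimulation beyond the test. Its promoter is shown because it holds the E-box that BHLHE40 and BHLHE41 themselves bind. It is the RefSeq window from 250 bases before to 50 bases after the gene's start, on the minus strand of GRCm38.p6 at chr6:145865371-145865670, with the E-box CACGTG in capitals.

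Bhlhe41: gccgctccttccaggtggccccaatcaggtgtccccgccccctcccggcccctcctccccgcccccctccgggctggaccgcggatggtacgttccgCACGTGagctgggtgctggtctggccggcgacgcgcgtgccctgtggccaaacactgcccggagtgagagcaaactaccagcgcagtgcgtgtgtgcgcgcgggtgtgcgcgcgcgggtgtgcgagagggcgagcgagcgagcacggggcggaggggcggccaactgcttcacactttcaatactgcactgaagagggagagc

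The E-box begins at position -153 relative to the start, and 7.15% of 32851 RefSeq promoters of 300 bases hold one (the motif reads the same on both strands). Bhlhe41 gave log2 signals of -2.43, -2.86 and -2.54 in WT cells at 0 h, where Bach2-/- cells gave -0.042, -0.46 and -0.27. At 24 h the WT arrays read -2.24, -2.35 and -2.08, and the Bach2-/- arrays 0.23, 0.67 and -0.28. Every Bach2-/- array was above every WT array at both times, while the 0 h and 24 h arrays of Bach2-/- cells overlapped. The difference between genotypes was 2.35 ± 0.26 (SE) at 0 h, a 5.11-fold higher signal (adjusted p = 0.00163), and 2.43 ± 0.26 at 24 h, 5.39-fold (adjusted p = 0.000401). The change with stimulation was 0.39 ± 0.26 in WT cells (adjusted p = 0.360) and 0.46 ± 0.26 in Bach2-/- cells (adjusted p = 0.338). Within slide 1 the genotype difference was 2.33 at 0 h and 2.41 at 24 h, and within slide 2 it was 2.39 and 2.47. With normexp background correction it was 1.29 at 0 h and 1.51 at 24 h, and it was called there too.

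A further Bhlhe41 probe, of the same accession, gave a genotype difference of 3.36 ± 0.45 at 0 h (adjusted p = 0.00504 over 30735 probes), as well as 3.30 ± 0.45 at 24 h (adjusted p = 0.00186). At 0 h its WT arrays read -4.05, -3.69 and -3.17 and its Bach2-/- arrays -0.23, -0.46 and -0.13, so the genotypes did not overlap on this probe either. Spn and Plscr1 were the other members with more than 1 probe.

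**Figure D2:**
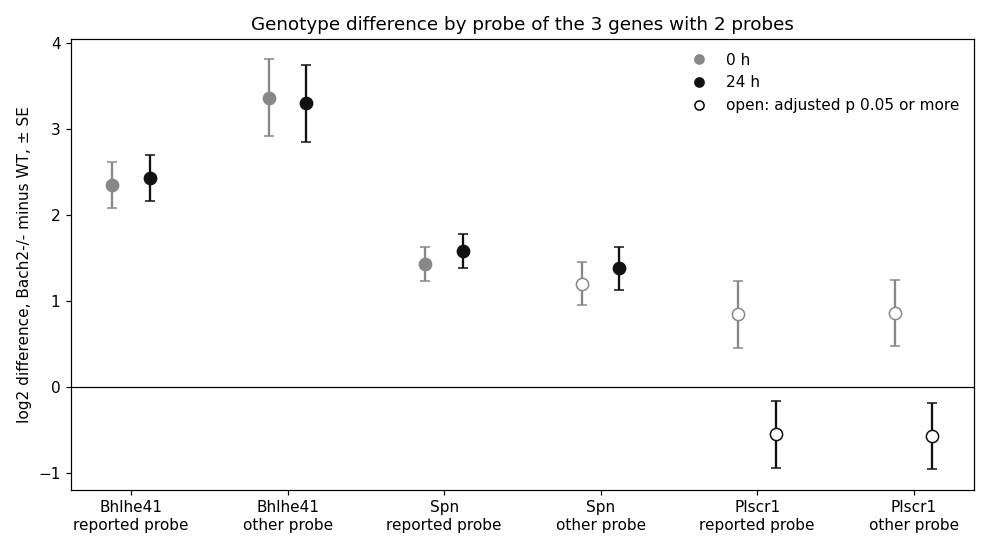
Points are log2 differences between genotypes (y axis, Bach2-/- minus WT, bars are ± SE, 3 arrays a group) for each probe of the 3 genes with 2 probes (x axis), grey at 0 h and black at 24 h. Open points have an adjusted p of 0.05 or more. The probes of Bhlhe41 lie between 2.35 and 3.36, those of Spn between 1.20 and 1.59, and the probes of Plscr1 lie above 0 at 0 h and below 0 at 24 h without passing the test.

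Bhlhe40, the relative of Bhlhe41, rose with stimulation in both genotypes, and its signals were lower in Bach2-/- cells at both times without passing the test. In WT cells at 0 h the 3 arrays of Bhlhe40 gave log2 signals of 1.31, 0.67 and 1.21, and those of Bach2-/- cells 0.18, -0.41 and 0.26. At 24 h it was 3.56, 3.02 and 2.86 in WT cells and 2.57, 2.45 and 2.33 in Bach2-/- cells. All 3 Bach2-/- arrays were below all 3 WT arrays at each time, and all arrays at 24 h were above all arrays at 0 h. The rise with stimulation was 2.08 ± 0.28 in WT cells (adjusted p = 0.000418) and 2.44 ± 0.28 in Bach2-/- cells (adjusted p = 0.000126). The genotype difference was -1.05 ± 0.28 at 0 h (adjusted p = 0.186; 0.0172 under the block), as well as -0.70 ± 0.28 at 24 h (adjusted p = 0.289; 0.0340 under the replicate block). Within slide 1 it was -1.02 and -0.55 at 0 h and 24 h, and within slide 2 it was -1.12 and -0.997. The responses of Bhlhe40 in Bach2-/- and WT cells had a difference of 0.36 ± 0.39 (95% interval -0.51 to 1.22, adjusted p = 0.890).

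Of 15 genes of the circadian clock, in which BHLHE40 and BHLHE41 act, 11 passed the filter. With limma none was called between genotypes at 0 h (0 with an unadjusted p under 0.05) or at 24 h (4 with an unadjusted p under 0.05, all lower), and with the replicate block 4 were lower at 24 h (Cry2, Dbp, Nr1d2 and Tef). That block called 19.6% of all genes at 24 h. The clock activator gene Arntl differed by -0.039 ± 0.30 at 0 h and -0.15 ± 0.30 at 24 h, and the repressor gene Per1 by -0.31 ± 0.36 and -0.041 ± 0.36. Stimulation lowered Arntl by -0.96 ± 0.30 in WT cells (adjusted p = 0.0396) and by -1.08 ± 0.30 in Bach2-/- cells (adjusted p = 0.0332). Ciart, a clock repressor gene, passed the background mark on 0 WT 0 h arrays and was at least 4.50-fold higher in WT cells at 24 h (adjusted p = 0.0436). That bound sets the mean of the 24 h arrays against the higher of each 0 h array's own signal and its lowest signal among probes well above background. Nr1d2 (-1.36 ± 0.34) and Dbp (-1.31 ± 0.39), both transcription factor genes of the clock output, fell in Bach2-/- cells (adjusted p = 0.0193 and 0.0443). In all, 1 of the 11 rose and 1 fell in WT cells and 3 fell in Bach2-/- cells, where limma called 21.9% and 14% of all genes. Without both doubted arrays, Bach2-/- 0 h array 1 and Bach2-/- 24 h array 2, 1 of the 11 genes was called in Bach2-/- cells (Per1, higher), beside 15.3% of all genes.

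**Figure D3:**
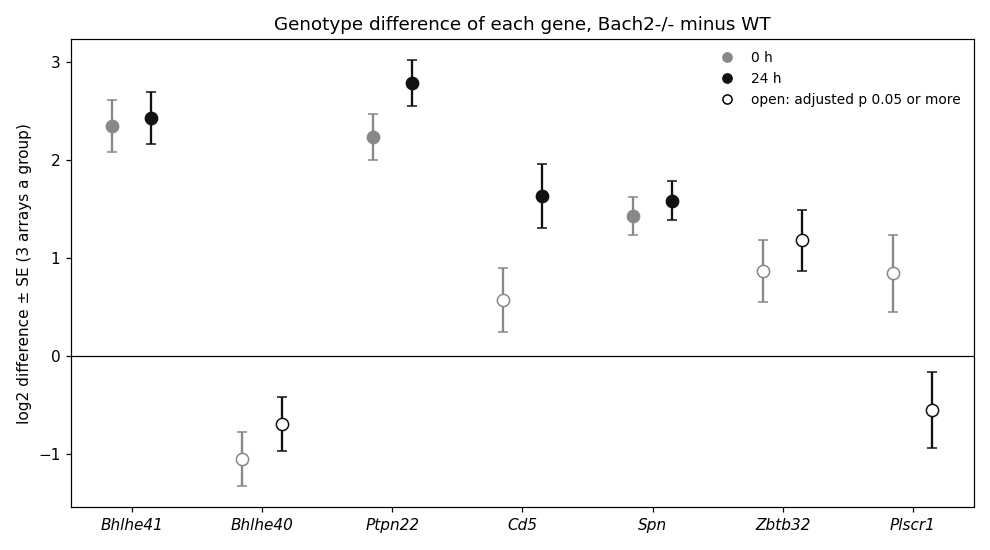
Log2 differences between genotypes (y axis, Bach2-/- minus WT, bars are ± SE, 3 arrays a group) for the 7 genes (x axis) at 0 h (grey) and 24 h (black). Filled points passed the test. Bhlhe41, Ptpn22 and Spn are filled at both times and Cd5 at 24 h, while Bhlhe40 lies below 0 at both times with open points.

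Ptpn22, the phosphatase gene, was higher in Bach2-/- cells at both times. RefSeq gives it 2 starts and so 2 promoters on the plus strand of GRCm38.p6, at chr3:103859545-103859844 and chr3:103860027-103860326. They are shown, with those of Spn (minus strand, chr7:127137774-127138073) and Cd5 (minus strand, chr19:10738925-10739224), because these genes were called higher in Bach2-/- cells.

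Ptpn22, first start: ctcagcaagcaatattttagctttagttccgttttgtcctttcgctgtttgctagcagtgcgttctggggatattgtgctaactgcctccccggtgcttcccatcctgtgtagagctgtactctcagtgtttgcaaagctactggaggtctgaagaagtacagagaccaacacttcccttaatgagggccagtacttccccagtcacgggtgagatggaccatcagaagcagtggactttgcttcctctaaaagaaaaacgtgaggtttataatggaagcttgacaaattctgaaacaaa

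Ptpn22, second start: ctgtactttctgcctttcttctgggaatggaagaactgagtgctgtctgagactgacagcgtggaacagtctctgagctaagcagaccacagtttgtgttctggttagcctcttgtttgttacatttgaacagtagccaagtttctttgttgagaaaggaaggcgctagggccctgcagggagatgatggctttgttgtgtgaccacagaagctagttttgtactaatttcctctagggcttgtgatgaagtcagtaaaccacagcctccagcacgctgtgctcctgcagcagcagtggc

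Spn: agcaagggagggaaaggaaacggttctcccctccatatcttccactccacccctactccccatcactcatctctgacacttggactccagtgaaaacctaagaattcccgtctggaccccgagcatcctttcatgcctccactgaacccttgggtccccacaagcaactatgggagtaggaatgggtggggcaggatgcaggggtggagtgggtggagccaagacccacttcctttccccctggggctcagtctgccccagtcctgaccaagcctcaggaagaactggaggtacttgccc

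Cd5: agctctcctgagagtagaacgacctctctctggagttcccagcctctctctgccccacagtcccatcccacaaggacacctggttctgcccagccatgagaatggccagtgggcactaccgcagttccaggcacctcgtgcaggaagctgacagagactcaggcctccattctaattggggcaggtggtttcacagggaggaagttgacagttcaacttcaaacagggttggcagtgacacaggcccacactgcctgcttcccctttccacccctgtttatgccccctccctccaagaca

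BACH proteins pair with small MAF proteins to bind the MAF recognition element. All letters are lower case because none of the motifs searched on both strands occurs in these windows. The motifs were TGCTGA then any base then TCA (MAF recognition element, in 0.423% of 32851 promoters), its inner part TGANTCA (AP-1 core, 7.81%, which overlaps the former wherever that occurs), the E-box CACGTG (7.15%) and GAAA then any 2 bases then GAAA (interferon response core, 3.44%). The promoters of Zbtb32 (2 starts) and Plscr1 held none of them either, so the E-box of Bhlhe41 was the only match in the 8 windows of 6 genes. The windows held 46% to 70.7% G and C, the highest in Bhlhe41.

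In WT cells at 0 h the 3 arrays of Ptpn22 gave log2 signals of 1.78, 1.75 and 1.99, and those of Bach2-/- cells 4.37, 3.86 and 3.999. At 24 h it was 1.80, 1.53 and 1.47 in WT cells and 4.57, 4.04 and 4.56 in Bach2-/- cells. The genotypes lay far apart at both times, and the times overlapped within each genotype. Bach2-/- cells exceeded WT cells by 2.24 ± 0.23 at 0 h, 4.72-fold (adjusted p = 0.00104), and 2.79 ± 0.23 at 24 h, 6.91-fold (adjusted p = 6.97e-05). The response of Ptpn22 was -0.24 ± 0.23 in WT cells, with adjusted p = 0.553, and 0.31 ± 0.23 in Bach2-/- cells (adjusted p = 0.512). The difference of these responses, 0.55 ± 0.33 (95% interval -0.18 to 1.28), did not pass the test (adjusted p = 0.773). Within slide 1 the genotype difference was 2.06 at 0 h and 2.80 at 24 h, and within slide 2 it was 2.59 and 2.77.

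Cd5, the B-1a surface marker and inhibitor of BCR signaling, was higher in Bach2-/- cells after stimulation. In WT cells at 0 h the 3 arrays of Cd5 gave log2 signals of 1.03, 0.30 and 0.44, and those of Bach2-/- cells 1.79, 0.82 and 0.88, which overlapped. At 24 h it was 1.83, 1.30 and 1.49 in WT cells and 3.55, 3.11 and 2.85 in Bach2-/- cells, which did not overlap. On each of the 4 groups the slide 2 array read highest. The genotype difference was 0.57 ± 0.33 at 0 h (adjusted p = 0.994), as well as 1.63 ± 0.33 at 24 h, 3.11-fold (adjusted p = 0.0196). The call at 24 h was lost with only the compared groups fitted (adjusted p = 0.0671) and without WT 24 h array 2 (0.0822), WT 24 h array 3 (0.0816) or Bach2-/- 24 h array 1 (0.0643), within a range of 7.94e-05 to 0.0822 over 18 alternatives. Cd5 rose by 2.01 ± 0.33 in Bach2-/- cells, 4.02-fold (adjusted p = 0.00143). Its WT response was 0.95 ± 0.33 (adjusted p = 0.0605; 0.000687 under the replicate block). The response was larger in Bach2-/- cells by 1.06 ± 0.46 (adjusted p = 0.614; 0.0293 under the replicate block), by 1.11 within slide 1 and by 0.96 within slide 2. In all 3 replicate numbers the Cd5 response was larger in Bach2-/- cells, by 0.96, 1.29 and 0.93.

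T cells also carry CD5, so their markers are given beside it. Of 17 T cell markers none was called between genotypes at 0 h (0 with an unadjusted limma p under 0.05), and 3 were higher in Bach2-/- cells at 24 h (9 with an unadjusted p under 0.05, 8 called with the replicate block). Those 3 were Thy1 (1.73 ± 0.33), Cd28 (1.41 ± 0.29) and Cd8b1 (1.37 ± 0.32), and without both doubted arrays 1 was called, Thy1. Of all genes limma called 2.26% higher at 24 h, and the replicate block called 19.6% in either direction. The median difference of the list was -0.13 at 0 h and 0.78 at 24 h. Its summed signal relative to the 75th percentile was 91.0 to 144 on the WT 24 h arrays and 83.4 to 103 on the Bach2-/- 24 h arrays. That sum adds unlogged signals, so the brightest markers weigh most in it, while the median weighs all 17 alike. With stimulation Cd2 fell (-4.56 in WT and -4.67 in Bach2-/- cells) and Lck rose (2.44 and 2.22). Cd3e, a subunit gene of the T cell receptor complex, was well above background on all 12 arrays and differed by 0.19 ± 0.37 at 24 h (adjusted p = 0.895). Of these markers, 15 to 17 were well above background on each array. For the difference of the responses the median of the 17 markers was 1.10, beside 1.06 for Cd5 itself. None of the 17 passed that test in limma, and 9 had an unadjusted p under 0.05, all toward higher values in Bach2-/- cells. With the replicate block 1 was called (Thy1), beside 5.09% of all genes. The part of T cells in the results of Cd5, of Spn and Ptpn22, and of the other members was not tested.

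PTPN22 and CD5 act on the proximal kinases and adaptors of the BCR, of which 14 of 14 were tested. This list also holds the ubiquitin ligase genes Cbl and Cblb, which the list of inhibitors below leaves out. At 0 h none was called (1 with an unadjusted limma p under 0.05, Cblb, lower), with or without both doubted arrays, and 1 was called with the replicate block (Cblb, lower). At 24 h, 2 were lower in Bach2-/- cells, again with or without both doubted arrays. These were Cblb (-2.07 ± 0.19, adjusted p = 0.000148), a ubiquitin ligase gene, and Syk (-1.52 ± 0.20, adjusted p = 0.00157), a kinase gene of the BCR cascade. With the replicate block 5 were lower and 1 was higher, where that block called 19.6% of all genes. Stimulation lowered 5 of the 14 in WT cells and 7 in Bach2-/- cells (5 without both doubted arrays), and raised 1 in each, Fyn (1.25 in WT and 1.51 in Bach2-/- cells). Limma called 21.9% and 14% of all genes for these responses. Syk fell by -1.59 ± 0.20 in WT cells and -3.17 ± 0.20 in Bach2-/- cells, and this difference passed the test (-1.58 ± 0.29, adjusted p = 0.04995, and 0.126 without both doubted arrays).

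A separate list held 12 inhibitors of the same pathway, such as the kinase gene Csk and the receptor gene Cd22, but not Cbl or Cblb. None of the 12 was called between genotypes at 0 h (0 unadjusted) or 24 h (2 higher and 1 lower unadjusted) in limma. With the replicate block 2 were higher and 3 lower at 24 h, beside 19.6% of all genes called. Stimulation lowered 4 and raised 0 of the 12 in WT cells, and lowered 3 and raised 1 in Bach2-/- cells, where 21.9% and 14% of all genes were called. With the replicate block 5 fell and 2 rose in each genotype. That block called 47.2% of all genes in WT and 33.9% in Bach2-/- cells. Cd22, which carries inhibitory motifs for SHP-1, fell by -2.62 ± 0.24 in WT and -3.13 ± 0.24 in Bach2-/- cells. Csk, which phosphorylates the inhibitory site of Src family kinases and partners PTPN22, differed between genotypes by 0.031 ± 0.34 at 0 h and -0.70 ± 0.34 at 24 h (adjusted p = 0.411; 0.0229 under the replicate block).

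Spn, which encodes CD43, was higher in Bach2-/- cells at both times, with close agreement between arrays. In WT cells at 0 h the 3 arrays of Spn gave log2 signals of 2.73, 2.66 and 2.54. The other groups gave 3.29, 2.93 and 3.34 on the WT 24 h arrays, 4.13, 4.01 and 4.08 on the Bach2-/- 0 h arrays and 4.77, 4.66 and 4.88 on the Bach2-/- 24 h arrays. No group overlapped any other, in the order WT 0 h, WT 24 h, Bach2-/- 0 h and Bach2-/- 24 h. The genotype difference was 1.43 ± 0.20 at 0 h, 2.69-fold (adjusted p = 0.00630), and 1.59 ± 0.20 at 24 h, 3.003-fold (adjusted p = 0.000945). The WT response of Spn was 0.54 ± 0.20 (adjusted p = 0.0729; 0.00855 under the replicate block), and Spn rose by 0.70 ± 0.20 in Bach2-/- cells (adjusted p = 0.0354). The latter call was lost in 12 of 18 alternatives, whose adjusted p ran from 0.00310 to 0.163. Among the arrays left out in turn, it was lost without Bach2-/- 0 h array 1 (0.0716), 2 (0.122) or 3 (0.111) and without Bach2-/- 24 h array 1 (0.0763) or 3 (0.124).

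A further Spn probe, of another accession of the gene, read -0.99, -1.03 and -1.06 in WT cells at 0 h, where Bach2-/- cells gave 0.53, -0.042 and 0.035. On this probe Bach2-/- cells read higher by 1.20 ± 0.25 before stimulation (adjusted p = 0.0632 over 30735 probes), which missed the test, and by 1.38 ± 0.25 after it (adjusted p = 0.0118). Both probes thus ran in the same direction without overlap between genotypes at 0 h. Of the 3 ERM genes whose products bind CD43 (Ezr, Msn and Rdx), none was called between genotypes at 0 h or 24 h, and none had an unadjusted limma p under 0.05. Their differences lay between -0.070 and 0.13 at 0 h and between -0.33 and -0.27 at 24 h.

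Plasma cells also carry CD43. Of 7 plasma cell markers tested, 2 were higher in Bach2-/- cells at 0 h (Prdm1 and Ly6c1) and 3 at 24 h (with Jchain), with or without both doubted arrays, and 4 at each time with the replicate block. Their summed signal was 103 to 152 in WT and 334 to 543 in Bach2-/- cells at 0 h, and 97.3 to 164 and 186 to 308 at 24 h. With an unadjusted limma p under 0.05, 4 of the 7 were higher and 0 lower at 0 h, and the same at 24 h. Sdc1, the plasma cell surface gene for CD138, read -0.22 to 1.09 in WT cells at 0 h, where Bach2-/- cells gave -1.24 to -0.063. These ranges overlapped, so Sdc1 did not part the genotypes. At 24 h the lowest difference among the 7 was -0.24. Marginal zone markers were also higher at 0 h, 3 of 7 (Asb2, S1pr3 and Cd9; 2 without both doubted arrays, 4 with the replicate block), with summed signals of 91.8 to 136 in WT and 155 to 288 in Bach2-/- cells. At 24 h 3 of the 7 were higher (Asb2, Cd9 and S1pr3) and 1 was lower (Dtx1), with or without both doubted arrays, and 4 were higher and 2 lower with the replicate block. Their summed signals were then 64.3 to 120 in WT and 120 to 196 in Bach2-/- cells. Of 7 neutrophil markers none was called at 0 h or 24 h with limma (4 and 5 had an unadjusted p under 0.05, all higher in Bach2-/- cells, and 3 were called at each time with the replicate block). Their summed signal was 11.1 to 30.6 in WT and 25.9 to 53.0 in Bach2-/- cells at 0 h, and 1.52 to 16.5 and 10.9 to 49.8 at 24 h. Of 6 macrophage and monocyte markers tested, 1 was higher in Bach2-/- cells at 0 h (Ms4a7) and 2 at 24 h (Lyz2 and Ms4a7; Ms4a7 alone without both doubted arrays, 3 with the replicate block). Their summed signal was 3.81 to 13.5 in WT and 9.20 to 11.8 in Bach2-/- cells at 0 h, and 7.96 to 11.2 and 7.64 to 17.7 at 24 h. Of 2 erythroid markers tested, Alas2 was higher at 24 h (3.93 ± 0.76, adjusted p = 0.0164), and with the replicate block at 0 h too. Of 6 NK cell markers none was called between genotypes with limma (2 higher at 0 h and 1 at 24 h with an unadjusted p under 0.05), and Gzma was higher at each time with the replicate block. The summed signal of the NK cell markers was 8.57 to 12.5 in WT and 14.5 to 16.5 in Bach2-/- cells at 0 h, without overlap, and 8.12 to 9.71 and 8.95 to 13.6 at 24 h. Over all genes limma called 0.629% higher at 0 h and 2.26% at 24 h, and the replicate block called 3.73% and 19.6% in either direction. The part of these cell types in the genotype differences of Bhlhe41, Ptpn22 and Spn was not tested, nor that of the follicular markers that were lower at 24 h. In bulk RNA, more cells of a type and more RNA per cell cannot be told apart.

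Zbtb32, a repressor gene of the BTB family, rose with stimulation in both genotypes. In WT cells at 0 h the 3 arrays of Zbtb32 gave log2 signals of -0.82, -0.64 and -0.52, and those of Bach2-/- cells 0.67, -0.15 and 0.093. At 24 h it was 1.02, 0.23 and 1.08 in WT cells and 1.52, 2.18 and 2.18 in Bach2-/- cells. The genotypes did not overlap at either time, and neither did the times within a genotype. The rise was 1.44 ± 0.31 in WT cells (adjusted p = 0.00744) and 1.75 ± 0.31 in Bach2-/- cells (adjusted p = 0.00263). Between genotypes it differed by 0.87 ± 0.31 at 0 h (adjusted p = 0.504), as well as 1.18 ± 0.31 at 24 h (adjusted p = 0.0759; 0.0197 under the replicate block). The genotype difference at 0 h was 0.55 within slide 1 and 1.49 within slide 2, and at 24 h it was 1.52 and 0.50. The difference of the responses was -0.996 for replicate number 1, the only one on slide 2, and 1.46 and 0.48 for numbers 2 and 3 on slide 1. It thus differed in sign between arrays, and slide 2 and replicate number 1 cannot be told apart. Over all arrays it was 0.31 ± 0.44 (95% interval -0.66 to 1.29, adjusted p = 0.915).

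ZBTB32 works with Blimp-1, the product of Prdm1, on genes such as Ciita, which drives MHC class II. Of 9 genes of this axis, Prdm1 was higher in Bach2-/- cells, by 3.38 ± 0.40 before stimulation (adjusted p = 0.00248) and 4.94 ± 0.40 after it (adjusted p = 5.74e-05). At 24 h the MHC class II gene H2-Eb1 was higher too (1.25 ± 0.25, adjusted p = 0.0178, and 0.0546 without both doubted arrays). With the replicate block, 7 of the 9 were higher at 24 h and 1 was lower, beside 19.6% of all genes called. Ciita had a difference of 0.024 ± 2.38 at 0 h and 1.49 ± 2.38 at 24 h (adjusted p = 0.857), with errors above either value. Its difference at 24 h was called with the replicate block, where its SE was 0.29 (adjusted p = 0.00865). In WT cells stimulation lowered 4 of the 9 (Pax5, H2-Aa, H2-Eb1 and Cd74) and raised 1 (Irf4), and in Bach2-/- cells it lowered 1 (Pax5) and raised 1 (Irf4), or lowered 3 and raised 2 with the replicate block. Limma called 21.9% of all genes in WT and 14% in Bach2-/- cells, and the block 33.9% in the latter. H2-Eb1 fell by -1.46 ± 0.25 in WT cells (adjusted p = 0.00170), while its response was -0.30 ± 0.25 in Bach2-/- cells (adjusted p = 0.568), and the difference of 1.17 ± 0.35 did not pass the test (adjusted p = 0.321) but was called with the replicate block (adjusted p = 0.0448).

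Plscr1, the scramblase gene, rose with stimulation in both genotypes. In WT cells at 0 h the 3 arrays of Plscr1 gave log2 signals of 0.27, -0.071 and -0.27, and those of Bach2-/- cells 1.39, 0.48 and 0.59. At 24 h it was 3.55, 2.34 and 2.70 in WT cells and 2.78, 1.69 and 2.45 in Bach2-/- cells, which overlapped. At 0 h the genotypes did not overlap, and the slide 2 array was the highest of each group. The rise was 2.88 ± 0.39 in WT cells, 7.38-fold (adjusted p = 0.000447), and 1.49 ± 0.39 in Bach2-/- cells, 2.81-fold (adjusted p = 0.0248). The call in Bach2-/- cells was lost in 6 of 18 alternatives, with adjusted p up to 0.101. These were normexp (0.0618), only the compared groups (0.0638), and leaving out Bach2-/- 0 h array 2 (0.101) or 3 (0.0982) or Bach2-/- 24 h array 1 (0.0842) or 3 (0.0875). The genotype difference was 0.84 ± 0.39 at 0 h (adjusted p = 0.798; 0.0474 under the replicate block), as well as -0.55 ± 0.39 at 24 h (adjusted p = 0.607). The response was smaller in Bach2-/- cells by -1.39 ± 0.55 (95% interval -2.61 to -0.18, adjusted p = 0.550; 0.0276 under the replicate block). It was -1.15 within slide 1 and -1.88 within slide 2, and -0.80 without both doubted arrays. A further Plscr1 probe gave -1.43 ± 0.54 for the same difference (adjusted p = 0.521 over 30735 probes).

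Of the 4 scramblase genes of this family on the array, Plscr1 and Plscr3 passed the filter, and Plscr3 was called in no comparison without a block. Its WT response of 0.47 ± 0.29 (adjusted p = 0.310) was called with the replicate block (adjusted p = 0.0111). Among 13 interferon-stimulated genes, the class to which Plscr1 belongs, 0 were called between genotypes at 0 h (1 higher and 1 lower with an unadjusted limma p under 0.05), and with the replicate block 1 was lower, Oasl1. At 24 h, 6 were higher in Bach2-/- cells, beside 2.26% of all genes, and 5 without both doubted arrays. Oasl1, a gene of the oligoadenylate synthetase family, differed by 3.21 ± 0.30 (adjusted p = 0.000154) and Isg15, which encodes a ubiquitin-like modifier, by 2.36 ± 0.29 (adjusted p = 0.000930). The antiviral gene Rsad2 passed the background mark on 0 WT 24 h arrays and was at least 4.71-fold higher in Bach2-/- cells (adjusted p = 7.27e-05). Plscr1 read lower in Bach2-/- cells at that time, though not past the test. In WT cells 10 of the 13 fell with stimulation and 1 rose (Ifih1, a sensor gene for viral RNA), and in Bach2-/- cells 6 fell and 3 rose. Without both doubted arrays 5 fell and 3 rose in Bach2-/- cells. Of all genes 9.38% were called lower and 12.5% higher in WT cells, and 8.11% and 5.92% in Bach2-/- cells. Plscr1, which was not counted in this list, rose in both. The responses of Oasl1 (4.16 ± 0.43), Rsad2 and Isg15 (2.74 ± 0.41) differed between genotypes past the test, all toward higher values in Bach2-/- cells, opposite in sign to that of Plscr1. With the replicate block 6 of the 13 passed this test, and without both doubted arrays 4 did. Those fits called 5.09% and 0.387% of all genes.

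**Figure D4:**
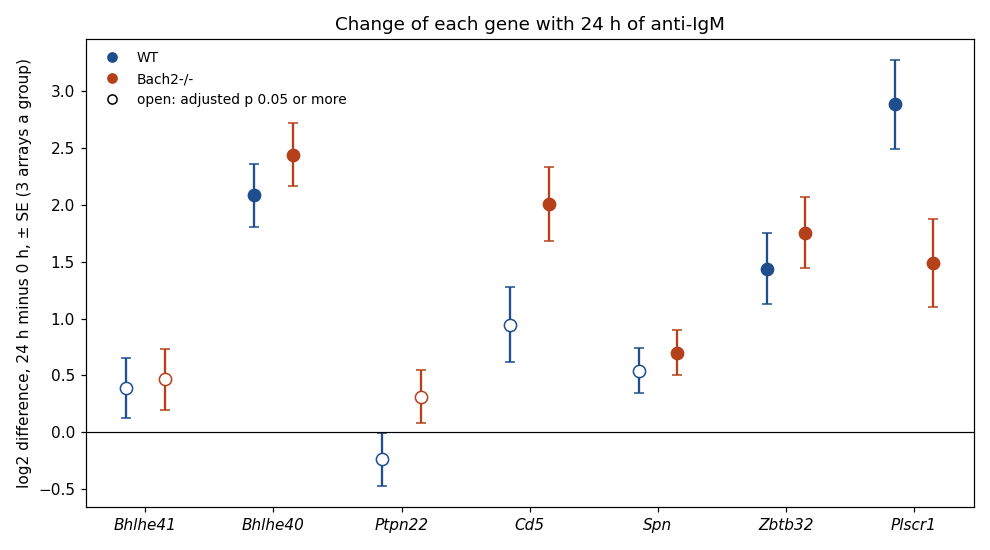
Log2 changes over 24 h with anti-IgM (y axis, 24 h minus 0 h, bars are ± SE, 3 arrays a group) for the 7 genes (x axis) in WT (blue) and Bach2-/- cells (red). Filled points passed the test of the change from 0. Bhlhe40, Zbtb32 and Plscr1 are filled in both genotypes, Cd5 and Spn only in Bach2-/- cells, and Bhlhe41 and Ptpn22 in neither, while 0 of the 7 differences between genotypes passed the test.

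Other genes known from B-1 cells differed between genotypes in both directions at 24 h. Of 13 listed, 12 were tested, and at 0 h 2 were higher in Bach2-/- cells: Ahr (2.08 ± 0.32, adjusted p = 0.0109), a ligand-activated transcription factor gene, and Cd9 (1.62 ± 0.28, adjusted p = 0.0248), a tetraspanin gene. Without both doubted arrays neither was called (adjusted p = 0.0507 and 0.106). At 24 h, 3 were higher and 2 lower, with or without both doubted arrays, and with the replicate block 6 were higher and 4 lower. Over all genes limma called 3.21% at 24 h and the replicate block 19.6%. Higher were Cd9 (2.95 ± 0.28, adjusted p = 0.000171), Ctla4, an inhibitory receptor gene (at least 2.56-fold, adjusted p = 0.00642), and the cytokine gene Il10 (at least 3.51-fold, adjusted p = 0.00925), both of which no WT 24 h array had well above background. Lower were Il5ra, the IL-5 receptor gene of B-1 cells (-2.69 ± 0.28, adjusted p = 0.000328), and Igf2bp3, an RNA-binding protein gene (at least 5.34-fold lower, adjusted p = 0.0106, with no Bach2-/- 24 h array well above background). Il5ra was also the only gene of this list whose response differed between genotypes in this fit (-2.33 ± 0.40, adjusted p = 0.0327, and 0.134 without both doubted arrays). Itgam, which encodes the CD11b of cavity B-1 cells, differed by -0.50 ± 0.79 at 0 h and 0.43 ± 0.79 at 24 h (adjusted p = 1.000 and 0.884). The median difference of the 12 genes was -0.14 at 0 h and 0.53 at 24 h.

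The 7 genes fell into several patterns over the 12 arrays. For Bhlhe41, Ptpn22 and Spn the mean of each Bach2-/- group was above that of each WT group. Both Bach2-/- groups of Bhlhe41 and of Ptpn22 overlapped each other, as did both WT groups of Ptpn22. Cd5 and Zbtb32 had the order Bach2-/- 24 h, WT 24 h, Bach2-/- 0 h and WT 0 h, in which WT 24 h and Bach2-/- 0 h overlapped, and for Cd5 both 0 h groups overlapped too. Bhlhe40 had WT above Bach2-/- at each time and no overlap between any neighbours in the order, and Plscr1 was highest in WT cells at 24 h, which overlapped Bach2-/- 24 h.

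To name genes with similar profiles, each log2 profile was centred on its mean over the 12 arrays and compared by the root mean square difference, over 13054 genes with a RefSeq symbol. Nearest to Bhlhe41 were Slc7a7, an amino acid transporter gene (0.28), the noncoding RNA gene Morrbid (0.35), and Ptpn22 (0.41), itself a member. Ptpn22 had Slc7a7 (0.30), Morrbid (0.39) and Sel1l3 (0.41) as its nearest. The genotype difference of Slc7a7 was 2.27 ± 0.31 at 0 h (adjusted p = 0.00636), as well as 2.41 ± 0.31 at 24 h (adjusted p = 0.00131), and that of Morrbid was 2.02 ± 0.32 (adjusted p = 0.0138) and 2.69 ± 0.32 (adjusted p = 0.000720). So 2 genes, Slc7a7 and Morrbid, were shared by the lists of Bhlhe41 and Ptpn22. These distances describe 12 arrays that share slides and groups. The genes were picked for likeness on these same arrays. That their genotype differences are near those of the member follows from that choice and is no further result.

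Nearest to Spn were Clic4 (0.24), a chloride channel family gene, Ssbp4 (0.25) and Wfdc18 (0.27). Cd5 was nearest to the kinase gene Map2k3 (0.26), the IL-3 receptor gene Il3ra (0.28) and the kinesin gene Kif18a (0.28). Map2k3 rose by 0.94 ± 0.24 in WT cells and 2.02 ± 0.24 in Bach2-/- cells, beside 0.95 and 2.01 for Cd5. Zbtb32 was nearest to the phosphoinositide 3-kinase subunit gene Pik3r6 (0.23), to Plpp5 (0.30) and to Ankrd28 (0.33). Bhlhe40 was nearest to Lck (0.41), Gm6377 (0.42) and Rnf227 (0.43), and Plscr1 to the centromere protein gene Cenpm (0.16), B9d1 (0.20) and Rasal1 (0.20). Cenpm rose by 2.70 ± 0.39 in WT cells (adjusted p = 0.000659) and 1.61 ± 0.39 in Bach2-/- cells (adjusted p = 0.0160). The likeness of Map2k3 to Cd5 and of Cenpm to Plscr1 likewise follows from how these genes were picked.

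**Figure D5:**
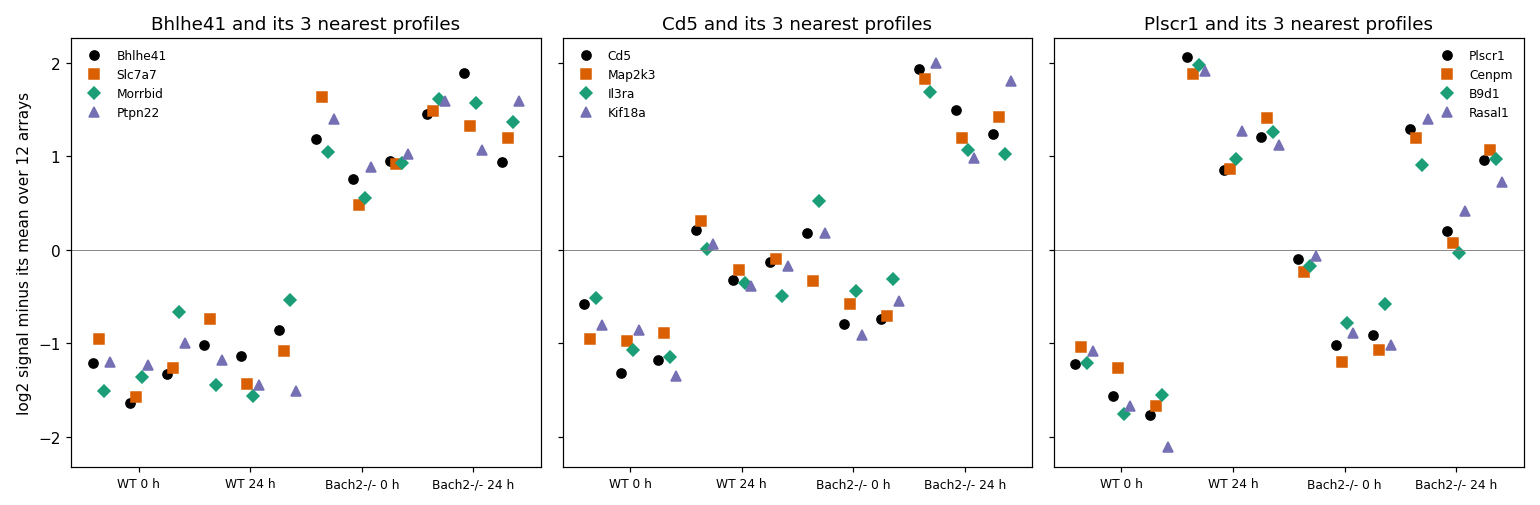
Points are log2 signals minus each gene's mean over the 12 arrays (y axis) on the arrays of the 4 groups (x axis, arrays 1, 2 and 3 from left to right in each group) for Bhlhe41, Cd5 and Plscr1 (black) and the 3 genes nearest to each (coloured). The 3 panels differ: Bhlhe41 parts the genotypes, Cd5 is highest on the 3 Bach2-/- 24 h arrays, and Plscr1 is highest at 24 h in both genotypes.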

How the data were processed

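Cy3-labelled total RNA was hybridised to 12 arrays with 1 colour, read with Agilent Feature Extraction 10.7.3.1, per the submitters' processing notes. Per the file headers, the scanner software subtracted the local background and detrended each spot, which gives the processed signal, an intensity. The spots' median signal and median background, also deposited intensities, served for the normexp alternative (offset 50). The authors' deposited log2 values were a further alternative. On 24375 probes well above background on all 12 arrays they matched the scanner log2 signal over the 75th percentile, with the median of each probe set to 0 (Pearson r 0.9988 to 0.9998 by array). Their scale, centring and direction were found in this way from the values, their column medians lay between -0.27 and 0.49, and the order of the authors' steps is unknown.

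Outlier spots (112 to 511 of 59305 noncontrol spots) were dropped, and the other spots of a probe averaged. The signal was divided by the array's 75th percentile, with 0.01 as the lowest value, before log2. Probes well above background on all 3 arrays of a group (30735) were kept, with the probe of the highest mean for each of 22744 genes. RefSeq accessions (GRCm38.p6) named 26413 probes, and 29268 kept the array's name. Differences between 4 group means came from limma 3.58.1, 2-sided, over all 12 arrays, and the code was tested on simulated data. R 4.3.3, Python 3.11.15 and matplotlib 3.10.9 were used. Precision is limited by 3 arrays a group.

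The members, gene lists and tests were chosen with earlier results of these data known. Named were the members, list genes past the test (at most 4 a comparison, with genes set beside them), the 3 nearest profiles and Bach2. Same-numbered arrays deviated together from their group means in all 18 pairs (r 0.47 to 0.89), and the numbers were taken as pairs for the replicate block. The same-numbered pairs on slide 2, all of number 1, had r 0.78 to 0.89, and those on slide 1 had 0.47 to 0.75. Arrays of different numbers on slide 1 had r 0.25 to 0.65, which overlaps the latter, and across slides r was -0.81 to -0.42. The labels do not give this pairing, and for number 1 it cannot be told apart from the slide. Alternatives were normalization, background, filter, probe choice, groups fitted, slide, replicate block, arrays left out and the deposited log2 values.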

Additional observations from a re-analysis of the deposited data

How the results depend on the processing

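Of the genotype calls, those of Bhlhe41, Ptpn22 and Spn at 0 h and 24 h were kept in all 18 alternatives. The highest adjusted p among them was 0.0495, for Spn at 0 h. In the alternative with every probe on its own, the probe of lowest p stood for its gene. By itself the further Spn probe missed the test at 0 h (adjusted p = 0.0632 over 30735 probes). The count of members called in Bach2-/- cells over 24 h was 5, but 3 with normexp and 3 with only the compared groups, and 3 to 5 with arrays left out in turn. Among all 22744 genes, 3191 were called for that response in the main fit, 2164 with normexp and 2055 with only the compared groups. With the slide as a block, 5 members were called in WT cells and 2 for the response difference, beside 10257 and 819 of all genes. With the replicate block 5 were called at 0 h, 5 in WT cells and 2 for the response difference, in place of 3, 3 and 0. That block called 849, 10746 and 1157 of all genes, in place of 170, 4985 and 78. The response difference of Bhlhe41 (0.076) had the other sign without WT 0 h array 1 (-0.014), Bach2-/- 0 h array 2 (-0.024), Bach2-/- 24 h array 2 (-0.15) or both doubted arrays (-0.046). It ran from -0.15 to 0.32 with arrays left out in turn and passed the test in 0 of 23 alternatives.

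Over all genes, 170 were called at 0 h, 729 at 24 h, 4985 and 3191 for the responses in WT and Bach2-/- cells, and 78 for the response difference. Normexp gave 74, 345, 3376, 2164 and 44. A filter on all 12 arrays gave 89, 424, 4319, 2468 and 35. Only the compared groups gave 90, 303, 4463 and 2055. The slide block gave 727, 3594, 10257, 7075 and 819, and the replicate block 849, 4469, 10746, 7710 and 1157. Leaving out 1 array gave 70 to 111, 380 to 614, 3197 to 4079, 2240 to 3429 and 41 to 79. The share called higher at 24 h fell from 70.5% to 42.6% with the slide block and to 41.4% with the replicate block, and for the response difference from 75.6% to 39.7% and 37.3%. It rose from 42.2% to 58.4% for the response in Bach2-/- cells without both doubted arrays. The cause was not tested. Without a filter the median of all genes was 0.13 at 24 h and 0.22 for the response in Bach2-/- cells, beside -0.055 and 0.073. No other alternative changed a count of members by over 1.5 times.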
